A study of Mus musculus with 6 samples.

Results

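The glycolysis and hypoxia genes described here are a set of 33 named genes: carriers and enzymes that take glucose to lactate, sensors and targets of the hypoxia-inducible factor (HIF), and the mitophagy receptors Bnip3 and Bnip3l. A gene was followed where a probe set of the array is annotated with its symbol alone. This held for 28 of the 33, through 36 probe sets, out of 22180 genes with such a probe set. Each of the 28 passed the brightness filter, a log2 value of 5 or more on 3 or more of the 6 arrays, which left 15619 genes to test in all. The probe sets of Bnip3l, Aldoa and Ankrd37 list a further symbol, Gpi1 and Eno1 have no probe set listed, and these 5 genes are not analysed here.

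Whole retinas of male mice were taken at postnatal day 17 and their total RNA was hybridised to Affymetrix mouse gene arrays, 1 array per sample with the retinas of both eyes combined. The 3 knockout samples have the genotype Chx10Cre+/-;Atrx flox/y and the 3 wildtype samples Chx10Cre-/-;Atrx flox/y, so the floxed Atrx allele is shared by both groups and the Cre transgene is present in the knockouts only. Atrx encodes a chromatin remodeller and lies on the X chromosome; its loss and the presence of Cre cannot be told apart in this design. Chx10 is a homeobox gene of retinal progenitor cells, and its regulatory sequence drives the Cre. By the design text, loss of amacrine and horizontal cells in these knockouts peaks at this age. The question is how gene expression differs between the genotypes at that point.

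Glycolysis splits glucose into pyruvate in the cytosol, and lactate dehydrogenase turns pyruvate into lactate. The retina is known for making much lactate even when oxygen is present, with photoreceptors and Muller glia as major sites. When oxygen falls, the prolyl hydroxylases encoded by the Egln genes no longer mark HIF1A for destruction, and HIF raises transcription of glucose carriers, many glycolytic enzymes, Vegfa, Pdk1 and Bnip3. Bnip3 and Bnip3l are proteins of the outer mitochondrial membrane that mark mitochondria for removal by autophagy.

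Of the 28 genes tested, 2 fell in knockout retina: Bnip3 and Pgam1, a phosphoglycerate mutase of lower glycolysis. None rose. These calls are adjusted p-values under 0.05 in limma, adjusted by Benjamini-Hochberg over all 15619 genes, of which 0.346% fell and 0.48% rose. The Pgam1 call rests on the brighter of 2 probe sets. The other, of similar brightness, was at -0.10 (limma adjusted p = 0.607), so the value of Pgam1 is uncertain. Both calls were lost in several alternative settings. Most of the other 26 genes were also lower in the knockouts, by small amounts. A total of 24 of the 28 had a log2 change (knockout minus wildtype) below 0, or 85.7%, against 49.1% of all genes tested. The median log2 change was -0.15 for the 28 and 0.00 for all genes. In 10 of the 28, or 35.7%, each knockout value lay below each wildtype value, against 9.58% of all genes. No gene of the 28 had its knockout values all above its wildtype values, against 10.7% of all genes. At an unadjusted limma p under 0.05, 5 of the 28 were lower (Bnip3, Pgam1, Hk2, Eno2 and Pfkm), against 6.5% of all genes, and 0 were higher. The 4 genes above 0 were Ldha (0.19), Gapdh (0.04), Pkm (0.03) and Hif1a (0.01). The set was assembled with earlier results of these arrays known, so these shares describe it and are not a test of it.

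**Figure D1:**
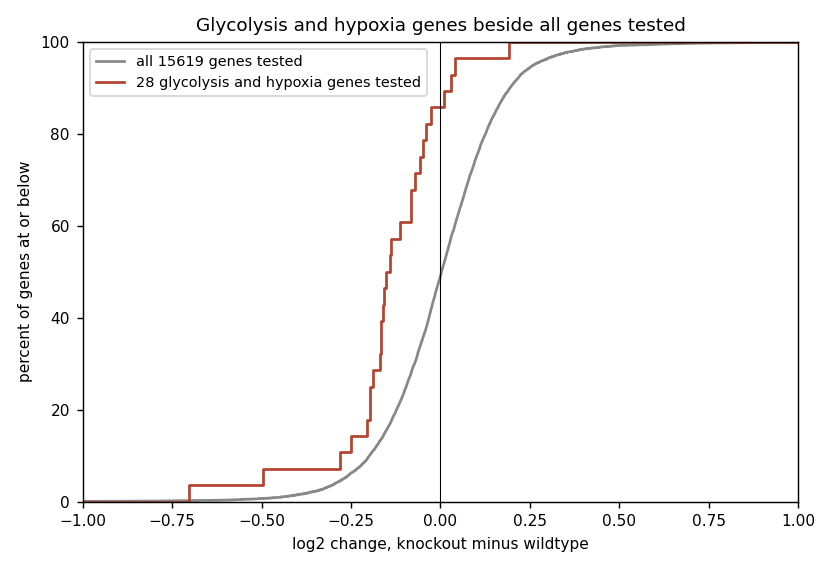
Cumulative share of genes (percent, vertical) at or below each log2 change, knockout minus wildtype (horizontal, shown from -1 to 1), for the 28 glycolysis and hypoxia genes tested and for all 15619 genes tested. The line of the 28 genes reaches 85.7% at a change of 0, where that of all genes stands at 49.1%.

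Across the whole series 129 of the 15619 genes were called, 0.826%. Array values correlated between 0.975 and 0.993. Atrx had log2 values of 8.42, 8.72 and 8.33 in the knockouts and 9.04, 8.86 and 9.17 in the wildtypes, a log2 change of -0.53 (SE 0.12, limma adjusted p = 0.115), and where its probes lie against the floxed part was not examined. Genes of rods, the most numerous cells of the mouse retina, were bright on every array, with list means from 11.97 to 12.07. Lens genes, which mark tissue that dissection should remove, stood out on knockout 2 (list mean 9.67) and wildtype 1 (11.09), the remaining 4 arrays having list means of 5.56 to 5.98. Results are therefore also given without those 2 arrays. In whole tissue, fewer cells of a type and less RNA per cell cannot be told apart.

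**Figure D2:**
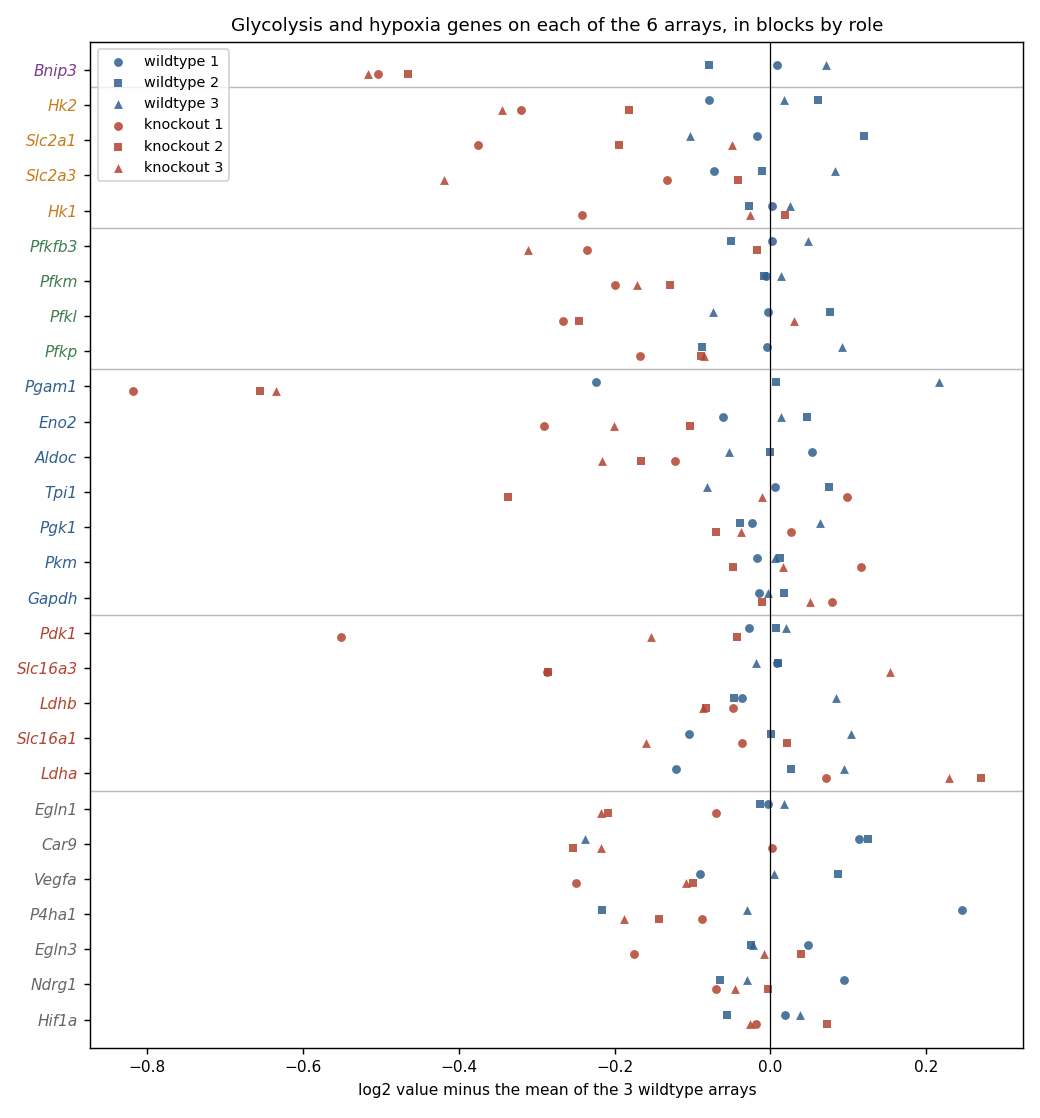
Log2 value of each of the 28 genes on each array, minus the mean of the 3 wildtype arrays (horizontal), with genes in blocks by role (vertical). Red symbols are knockout and blue symbols wildtype; shape gives the replicate. Knockout values of Bnip3 and Pgam1 lie well to the left of every wildtype value, while those of most other genes lie closer to 0 or overlap.

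The promoters of the 3 tested genes with the smallest limma p, Bnip3, Pgam1 and Hk2, are shown because HIF acts through a short core sequence that can be read in them. Each is the 250 bases before the RefSeq start site (build GRCm38.p6, gene strand, 5′ to 3′). Capitals mark ACGTG or GCGTG, the core of the hypoxia response element, on either strand, so that CACGT and CACGC are the same cores on the opposite strand. The run CACGTG in the Bnip3 promoter holds ACGTG on both strands and is counted as 2 matches; it is also the core that E-box factors bind. The Bnip3 window is chr7:138909507-138909756 on the minus strand, the Pgam1 window chr19:41911621-41911870 on the plus strand, and the Hk2 window chr6:82774455-82774704 on the minus strand.
Bnip3: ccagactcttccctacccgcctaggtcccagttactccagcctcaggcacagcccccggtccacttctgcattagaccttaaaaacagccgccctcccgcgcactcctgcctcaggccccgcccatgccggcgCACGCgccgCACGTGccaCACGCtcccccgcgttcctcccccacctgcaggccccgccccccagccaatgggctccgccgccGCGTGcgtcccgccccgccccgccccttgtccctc
Pgam1: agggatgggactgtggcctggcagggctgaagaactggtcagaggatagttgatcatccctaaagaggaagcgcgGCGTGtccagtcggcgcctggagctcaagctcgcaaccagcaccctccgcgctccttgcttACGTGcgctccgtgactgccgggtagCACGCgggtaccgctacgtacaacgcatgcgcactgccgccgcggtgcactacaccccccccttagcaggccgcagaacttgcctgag
Hk2: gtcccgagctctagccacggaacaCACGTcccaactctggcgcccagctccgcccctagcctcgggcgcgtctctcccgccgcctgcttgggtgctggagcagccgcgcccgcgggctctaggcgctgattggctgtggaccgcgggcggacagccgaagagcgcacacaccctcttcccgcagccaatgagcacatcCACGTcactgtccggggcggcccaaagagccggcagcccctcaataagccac

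The Bnip3 window held 5 matches, 4 of them clustered between 117 and 99 bases before the start and the last at 35 bases. The Pgam1 window held 3, at 175, 114 and 88 bases. The Hk2 window held 2, at 226 and 52 bases, both ACGTG on the opposite strand. Start sites were listed for 26 of the 28 tested genes, with 36 promoters. ACGTG was found in 52.8% of these 36 promoters, against 16.6% of the 32851 promoters of the table. Either core was found in 80.6% of the 36, against 38.6%. The cores contain CG, and the promoters of the set were richer in G and C, with a median of 60.4% against 52.4%. The median count of CG per window was 13.5 in the set, against 6 in all promoters. Known HIF targets were among the genes listed, and the promoters compared with were not limited to tested genes. Gapdh and Ldhb, with small changes, carry a core as well, while Eno2 and Tpi1 have neither in this window. Ldha, the highest of the set with a log2 change of 0.19, had up to 5 ACGTG matches in a promoter, and Hif1a, at 0.01, had 3. Bnip3 and Hk2 had 2 each and Pgam1 had 1. A match is a description of the letters and not evidence of binding.

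Bnip3 had the smallest p of the set. Its log2 values were 7.86, 7.90 and 7.85 in the knockouts and 8.37, 8.29 and 8.44 in the wildtypes. The knockouts lay close together, and the highest of them was 0.39 below the lowest wildtype. The mean was 7.87 ± 0.03 in knockout and 8.37 ± 0.08 in wildtype retina (SD, n = 3 per group), which makes wildtype 1.41-fold higher. The log2 change was -0.50 (SE 0.075, 95% interval -0.67 to -0.32, limma adjusted p = 0.027). An exact permutation test gave p = 0.1, which is as low as 3 against 3 samples can reach. The size varied little when any 1 array was left out (-0.53 to -0.46). The call was lost without any array but knockout 2, with adjusted p from 0.090 to 0.144. With both lens-rich arrays removed the change was -0.51 (adjusted p = 0.147).

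Other genes of mitophagy were not called. Of 16 tested in that list, 9 were below 0, with a median log2 change of -0.04. The list means ran from 8.893 to 8.942 in the knockouts and from 8.944 to 8.984 in the wildtypes, lower in the knockouts by a narrow margin. Sqstm1, an adaptor that links ubiquitin to autophagosomes, had a log2 change of -0.25 (SE 0.071, limma adjusted p = 0.177). Ulk1, a kinase that starts autophagy, was at -0.24 (SE 0.085, limma adjusted p = 0.281). In both genes each knockout value was below each wildtype value.

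Glucose enters cells through carriers and is trapped by hexokinase. In this block 4 of 4 genes were below 0 and none was called. Hk2, the hexokinase isoform that HIF induces and that photoreceptors use, had log2 values of 7.71, 7.85 and 7.68 in the knockouts and 7.95, 8.09 and 8.04 in the wildtypes. The groups did not overlap, but the gap between them was only 0.10. The log2 change was -0.28 (SE 0.082, 95% interval -0.47 to -0.09, limma adjusted p = 0.191). Hk1, the widely expressed hexokinase, was at -0.08 (95% interval -0.29 to 0.12), with only knockout 1 (9.41) below all wildtypes (9.62 to 9.68). The difference between the changes of Hk2 and Hk1 was -0.20, and its exact permutation p was 0.2.

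Slc2a1 encodes GLUT1, the carrier that brings glucose across the blood-retinal barrier and into photoreceptors. Its log2 values were 11.29, 11.47 and 11.62 in the knockouts and 11.65, 11.79 and 11.57 in the wildtypes. Knockout 3 overlapped the wildtypes and the other knockouts did not. The log2 change was -0.21 (95% interval -0.45 to 0.03, limma adjusted p = 0.437), and a dimmer probe set of the gene was at -0.07. Slc2a3, the neuronal carrier GLUT3, had a log2 change of -0.20 (95% interval -0.45 to 0.05), to which knockout 3 (7.45) contributed most, the other knockouts being at 7.73 and 7.82 and the wildtypes between 7.79 and 7.95.

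Phosphofructokinase makes the committed step of glycolysis. Its 3 subunit genes and Pfkfb3, whose product makes an activator of the enzyme, were all below 0 and none was called. Pfkm, the muscle-type subunit, had log2 values of 8.25, 8.32 and 8.28 in the knockouts and 8.45, 8.44 and 8.47 in the wildtypes. The groups were tight and did not overlap, and the log2 change was -0.17 (SE 0.070, 95% interval -0.33 to -0.01, limma adjusted p = 0.353). Pfkl, the liver-type subunit, was at -0.16 (95% interval -0.39 to 0.07), and knockout 3 (9.53) lay among the wildtypes (9.43 to 9.58). Pfkp, the platelet-type subunit, was at -0.11 (95% interval -0.30 to 0.07). Pfkfb3 was at -0.19 (95% interval -0.40 to 0.03), with knockouts from 6.09 to 6.38 and wildtypes from 6.35 to 6.45. The changes of Pfkm and Pfkl differed by -0.01 and those of Pfkp and Pfkl by 0.05, with exact permutation p-values of 1 and 0.8.

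From aldolase to pyruvate kinase, 7 genes were tested, 5 of them below 0, and Pgam1 was called. The brighter of its 2 probe sets had log2 values of 9.69, 9.85 and 9.87 in the knockouts and 10.29, 10.52 and 10.73 in the wildtypes. The groups were 0.41 apart at their nearest values. The mean was 9.81 ± 0.10 in knockout and 10.51 ± 0.22 in wildtype retina (SD, n = 3 per group), which makes wildtype 1.63-fold higher. The log2 change was -0.70 (SE 0.12, 95% interval -0.97 to -0.43, limma adjusted p = 0.043), the largest in size of the 28.

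The dimmer Pgam1 probe set, close in brightness, did not show this. Its log2 values were 10.10, 10.11 and 9.96 in the knockouts and 10.12, 10.16 and 10.20 in the wildtypes. The knockout values were again the lower ones, but by 0.10 in the mean (95% interval -0.28 to 0.08, limma adjusted p = 0.607 among all single-symbol probe sets). The difference between the changes of the 2 probe sets was -0.60, and the within-array differences of the groups did not overlap (exact permutation p = 0.1). The mean of both gave a log2 change of -0.40 (limma adjusted p = 0.097). Over all arrays the brighter probe set had a mean of 10.16 and the dimmer one 10.11. In the knockouts this order was reversed, with means of 9.81 and 10.06, against 10.51 and 10.16 in the wildtypes. The choice of the brighter probe set therefore rested on the wildtype arrays and was not independent of the genotype difference. Genes of this family have processed copies elsewhere in the genome, and which transcripts each probe set reads was not examined, so the value of Pgam1 is uncertain. With the brighter probe set the call was lost without any array but wildtype 1 (adjusted p from 0.072 to 0.192). With both lens-rich arrays removed the change was -0.84 (adjusted p = 0.065).

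**Figure D3:**
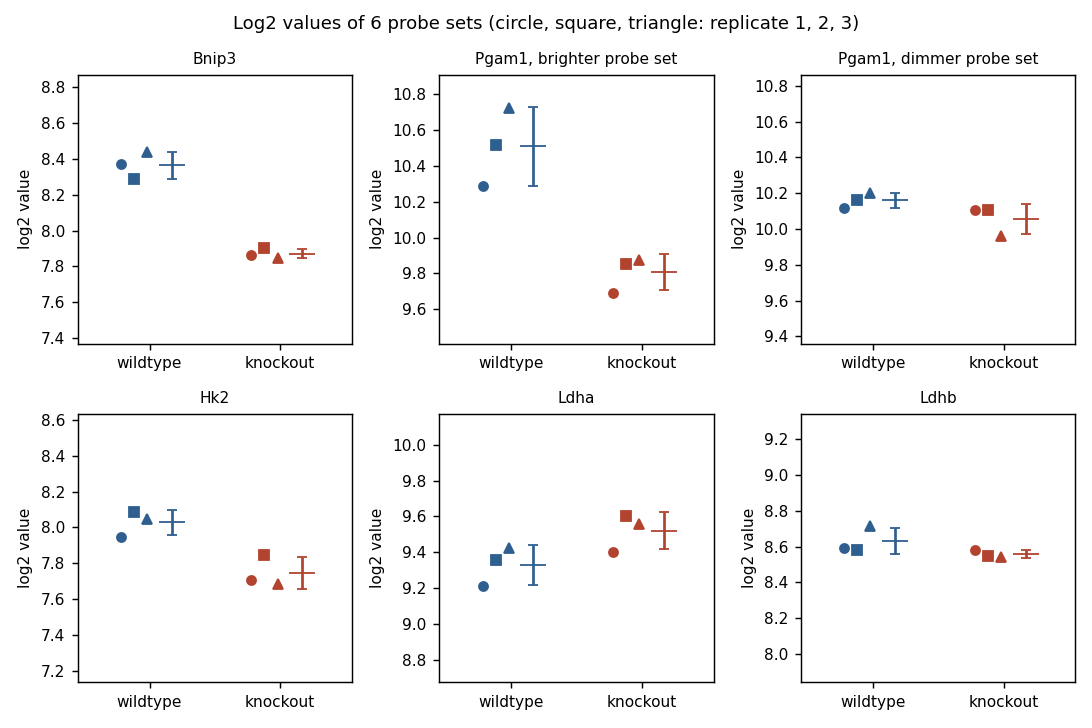
Log2 values (vertical) of Bnip3, both Pgam1 probe sets, Hk2, Ldha and Ldhb in wildtype and knockout retina, with a mark per array (shape gives the replicate) and a bar with whiskers for the mean ± SD (n = 3). Every panel spans the same 1.5 log2 units. The knockouts sit lower for Bnip3 and the brighter Pgam1 probe set and nearly level with the wildtypes for the dimmer one.

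Eno2, the neuronal enolase, had log2 values of 9.96, 10.15 and 10.05 in the knockouts and 10.19, 10.30 and 10.27 in the wildtypes. The knockouts were lower by a gap of 0.04, and the log2 change was -0.20 (SE 0.081, limma adjusted p = 0.338). Aldoc, the brain-type aldolase, had 11.08, 11.04 and 10.99 in the knockouts and 11.26, 11.21 and 11.15 in the wildtypes. Here too the groups did not overlap, with a log2 change of -0.17 (SE 0.074, limma adjusted p = 0.370).

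The remaining enzymes of this stretch had small estimates. Tpi1, which interconverts the triose phosphates, was at -0.08 (95% interval -0.35 to 0.19), and that value came from knockout 2, the lens-rich one (11.27 against 11.71 and 11.60 on the other knockouts). Without the lens-rich arrays the Tpi1 change was 0.05. Pgk1, the enzyme of the first ATP-yielding step, was at -0.03 (95% interval -0.20 to 0.14). Pkm, pyruvate kinase, was at 0.03 (95% interval -0.15 to 0.20). Gapdh was at 0.04 (95% interval -0.12 to 0.20), and its other 2 probe sets were at 0.04 and 0.09. Gapdh has many processed copies in the mouse genome, so its probe sets may share signal with them. The intervals of Pgk1, Pkm and Gapdh do not reach the size seen for Bnip3.

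**Figure D4:**
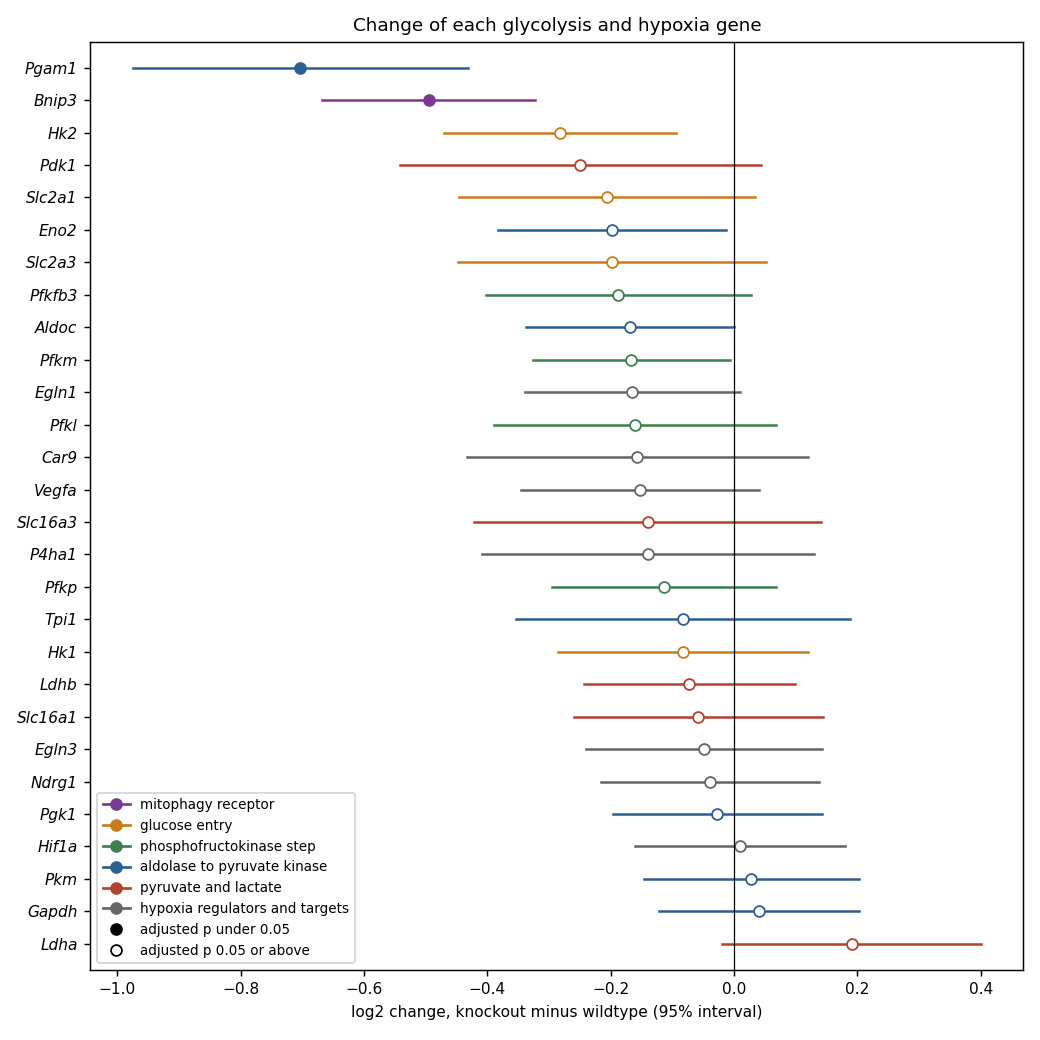
Log2 change, knockout minus wildtype (horizontal), with its 95% interval from limma for each of the 28 genes (vertical, sorted by size), coloured by role. Filled marks are the 2 genes with an adjusted p under 0.05 (Pgam1 and Bnip3); Ldha, at 0.19, is the highest.

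At the end of the pathway, pyruvate goes to lactate or to the mitochondria. Ldha encodes the muscle-type lactate dehydrogenase subunit, which favours lactate formation. Its log2 values were 9.40, 9.60 and 9.56 in the knockouts and 9.21, 9.36 and 9.43 in the wildtypes. Knockout 1 lay within the wildtype range and the other knockouts above it, and the log2 change was 0.19 (95% interval -0.02 to 0.40, limma adjusted p = 0.406). Without the lens-rich arrays, knockout 2 and wildtype 1, it was 0.09. Ldhb, the heart-type subunit, had 8.58, 8.55 and 8.54 in the knockouts and 8.59, 8.58 and 8.71 in the wildtypes. Those groups did not overlap by the narrowest of margins (0.002), and the log2 change was -0.07 (limma adjusted p = 0.709). The Ldha and Ldhb changes differed by 0.26, with every knockout array higher in the within-array difference than every wildtype array (exact permutation p = 0.1). Over the 8 pairs of probe sets compared in this way, none could pass 0.05, and the smallest p adjusted over the pairs was 0.4. The pairs were chosen after the values were seen.

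Pdk1, a kinase that shuts off pyruvate dehydrogenase, had log2 values of 7.03, 7.54 and 7.43 in the knockouts and 7.56, 7.59 and 7.60 in the wildtypes. The knockouts were the lower ones, but only knockout 1 stood well apart. The log2 change was -0.25 (SE 0.13, 95% interval -0.54 to 0.04, limma adjusted p = 0.440). Without knockout 1 it was -0.10. The lactate carriers were near 0 or mixed. Slc16a1 (MCT1) was at -0.06 (95% interval -0.26 to 0.14). Slc16a3 (MCT4) was at -0.14 (95% interval -0.42 to 0.14), with knockouts 1 and 2 at 7.69 each, below the wildtypes (7.96 to 7.98), and knockout 3 at 8.13, above them.

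Among regulators and targets of HIF, 6 of 7 tested genes were below 0 and none was called. Hif1a itself, the oxygen-regulated subunit, differed little in RNA level, with a log2 change of 0.01 (95% interval -0.16 to 0.18) and 0.15 (95% interval -0.15 to 0.44) on a dimmer probe set. HIF activity is set mainly at the protein level, which arrays do not measure. Egln1, the main prolyl hydroxylase and itself a HIF target, had log2 values of 8.56, 8.42 and 8.41 in the knockouts and 8.62, 8.61 and 8.65 in the wildtypes. Its groups did not overlap, with a log2 change of -0.17 (SE 0.076, 95% interval -0.34 to 0.01, limma adjusted p = 0.392). Egln3, a more strongly inducible relative, was at -0.05 (95% interval -0.24 to 0.14).

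Vegfa, the main growth factor of retinal vessels, had log2 values of 9.00, 9.15 and 9.14 in the knockouts and 9.16, 9.33 and 9.25 in the wildtypes. Wildtype 1 was only 0.01 above the highest knockout. The log2 change was -0.15 (SE 0.084, 95% interval -0.34 to 0.04, limma adjusted p = 0.475). Car9, a carbonic anhydrase induced strongly by hypoxia, was dim, with log2 values from 5.41 to 5.79 on all 6 arrays, a change of -0.16 and overlapping groups. P4ha1, a collagen prolyl hydroxylase, was at -0.14 (95% interval -0.41 to 0.13), and its highest value was on lens-rich wildtype 1 (8.75, against 8.29 and 8.47 on the other wildtypes). Without the lens-rich arrays P4ha1 was at -0.01. Ndrg1, a stress-responsive gene, was at -0.04 on its brighter and -0.01 on its dimmer probe set.

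The lower values were not spread evenly over the knockouts. Knockout 1 was the lowest of the 6 arrays for 12 of the 28 genes, knockout 3 for 8 and knockout 2 for 4. Wildtype 1 and wildtype 2 were lowest for 2 each and wildtype 3 for none. On each knockout 22 or 23 of the 28 genes lay below the wildtype mean, and the median difference from that mean was -0.15, -0.09 and -0.10 on knockouts 1, 2 and 3. The mean of the 28 log2 values was 9.30, 9.35 and 9.34 on the knockouts and 9.46, 9.47 and 9.48 on the wildtypes. Without knockout 1 the median log2 change of the 28 was -0.11. Without both lens-rich arrays it was -0.13, with 24 of 28 genes below 0, and in 13 of the 28 the knockouts lay below the wildtypes, against 24.2% of all genes with only 2 arrays per group. None of the 28 was called in limma there, where 36 of all genes were called. At an unadjusted limma p under 0.05, 7 of the 28 were lower there, against 7.36% of all genes. Besides Ldha, Tpi1 and P4ha1, the estimates that came closer to 0 by over 1.5 times were those of Car9 (-0.05), Slc16a3 (-0.06), Ndrg1 (-0.01) and Pgk1 (-0.02). Those of Slc2a3 (-0.31), Slc16a1 (-0.15), Hk1 (-0.13) and Pkm (0.06) went further from 0 by over 1.5 times, and Hif1a changed sign to -0.01.

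Markers of several retinal cell types were read beside these values. All 8 tested amacrine genes were below 0 and 4 fell (Slc5a7, Gad1, Chat and Slc6a5), with list means from 7.06 to 7.33 in the knockouts and from 7.74 to 7.87 in the wildtypes. In the rod list 3 of 6 were below 0 and none was called. Its list means ran from 12.058 to 12.071 in the knockouts and from 11.967 to 12.056 in the wildtypes, without overlap. In 2 of the 6 the knockouts lay above the wildtypes, against 10.7% of all genes. The Muller glia list, with 4 of 8 below 0 and none called, had list means from 9.80 to 9.89 and from 9.84 to 9.91. In 3 of these 8, or 37.5%, the knockouts lay below the wildtypes, against 9.58% of all genes, and in 1 above them. The horizontal cell list, with 4 of 5 below 0 and none called, had list means from 6.81 to 7.08 in the knockouts and from 7.02 to 7.10 in the wildtypes. Its lowest gene was Onecut1, a transcription factor of these cells, at -0.38 (limma adjusted p = 0.055) with knockouts below wildtypes. The bipolar cell list, with 3 of 5 below 0 and none called, had list means from 8.52 to 8.72 and from 8.71 to 8.78. Its lowest gene was Prkca, a marker of rod bipolar cells, at -0.38 (limma adjusted p = 0.232), again with knockouts below wildtypes. Both genes were singled out after their values were seen. In the cone list 4 of 6 were below 0 and none was called, with a median log2 change of -0.13, against -0.15 for the 28 genes. The knockouts lay below the wildtypes for the cone gene Opn1sw (-0.32) and above them for the cone gene Pde6c (0.21). In the ganglion cell list 5 of 6 were below 0 and none was called, with a median of -0.06. Pigment epithelium genes varied within both groups, from 9.01 to 10.02 in the knockouts and from 9.39 to 10.22 in the wildtypes. Endothelial and pericyte genes ran from 7.88 to 8.01 and from 7.96 to 8.04. The amacrine list means thus differed by genotype without overlap. The rod list means lay higher in the knockouts, without overlap but by a narrow margin. The horizontal, bipolar, cone and ganglion list means leaned lower with overlap. So did those of Muller glia, endothelial and pericyte, pigment epithelium and microglia genes. The part of any of these in the values of the glycolysis and hypoxia genes was not tested.

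Neighbouring pathways were read from 9 lists of 155 genes in all, of which 131 were tested. None was called in limma, and 16 had an unadjusted p under 0.05, of which 8 were lower and 8 higher, where 13.5% of all genes had one. Of the 131, 51.1% were below 0, and in 10.7% the knockouts lay wholly below the wildtypes, both close to the shares of all genes. The downward lean of the 28 genes was not shared in size by these lists, whose medians ran from -0.04 to 0.08; the differences between lists were not tested. Among 16 other glycolytic isoforms 6 were below 0 and the median was 0.08. Pfkfb2, another regulator of phosphofructokinase, was at 0.30 (SE 0.078, limma adjusted p = 0.154), with its knockout values all above the wildtypes. Gapdhs, the sperm form of Gapdh, was at -0.39 (SE 0.089, limma adjusted p = 0.108) but dim, at 5.16 in knockout and 5.55 in wildtype retina.

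Among 21 other hypoxia-inducible genes 12 were below 0, with a median of -0.01. Plod2, a collagen lysyl hydroxylase, was at 0.37 (SE 0.078, limma adjusted p = 0.093), and its relative Plod1 at -0.28 (SE 0.11, limma adjusted p = 0.332). Among 13 HIF pathway regulators 7 were below 0, with a median of -0.02. Epas1, which encodes the HIF2A subunit, was at -0.29 (SE 0.11, limma adjusted p = 0.302) with knockouts below wildtypes, and Crebbp, a coactivator, was at -0.18.

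The routes that branch from glycolysis had medians near that of all genes, but their shares of lower genes varied. Among 14 other glucose and monocarboxylate carriers 9 were below 0 (median -0.04), with Slc16a7, the lactate and pyruvate carrier MCT2, at 0.26 and Slc16a6 at 0.22. Of 12 genes of pyruvate dehydrogenase and its regulators 3, or 25%, were below 0 (median 0.05), against 49.1% of all genes, with the kinase Pdk3 and the phosphatase Pdp2 each at 0.20. Of 17 citrate cycle genes 9 were below 0 (median -0.01), with Idh2 at -0.29 and Sdhc at 0.21. Of 8 pentose phosphate genes 3 were below 0 (median 0.07), with Prps1 at 0.20 and Taldo1 at 0.10. Of 14 glycogen genes 9 were below 0 (median -0.02), with the phosphorylase Pygl at -0.38 and the synthase Gys1 at -0.21; in both the knockouts lay below the wildtypes. That held for 4 of the 14 glycogen genes, or 28.6%, against 9.58% of all genes, and the list means were from 7.54 to 7.65 in the knockouts and from 7.67 to 7.71 in the wildtypes.

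**Figure D5:**
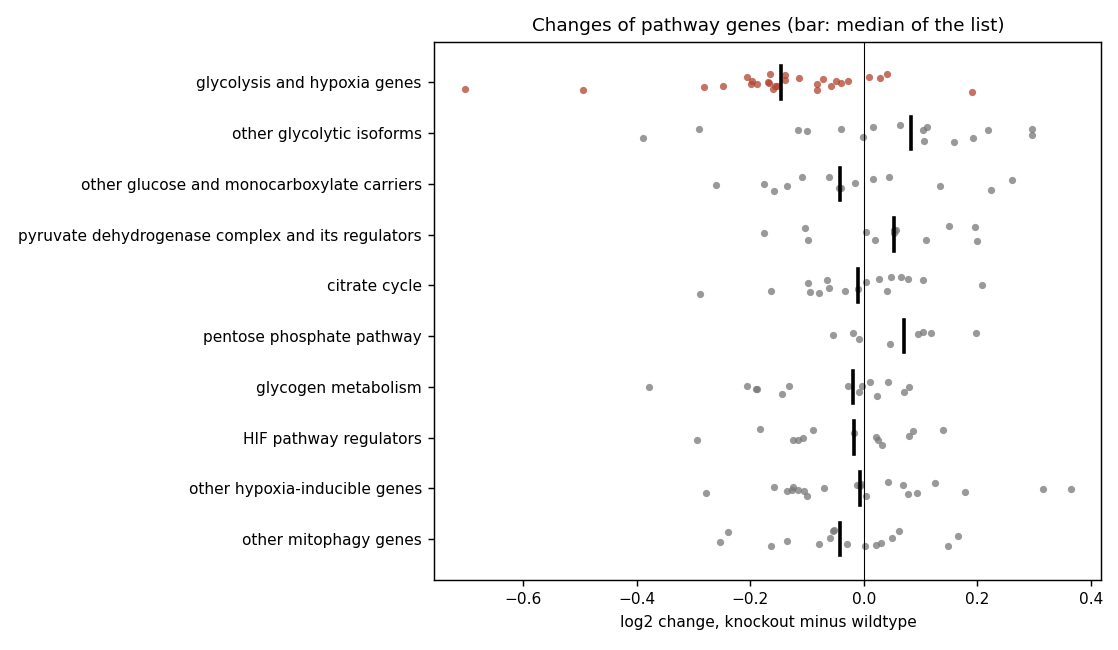
Log2 change, knockout minus wildtype (horizontal), of every tested gene in the 28-gene set (red) and in 9 neighbouring pathway lists (grey), with a black bar at each median. The median of the set is -0.15, and those of the other lists lie between -0.04 and 0.08.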

How the data were processed

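The deposited values are on a log2 scale, 1 per probe set and array, and the submitters' processing notes name RMA as the method; version, software and genome build: not given in the sources used here. RMA normalizes arrays by quantiles, which hides any change in total RNA per cell, and background compresses the folds of dim probe sets. Of 41345 probe sets, 23521 had 1 gene symbol in the platform annotation, 1814 several and 16010 none; only the first kind was used. A gene with several probe sets past the filter (log2 value of at least 5 on at least 3 arrays) was represented by the brightest. Genotypes were compared by limma (version 3.58.1, under R 4.3.3) with lmFit and eBayes, 2-sided and with no covariate. Benjamini-Hochberg adjustment was over all genes. The procedure was also run on simulated data in which genes varied independently and no array was lens-rich. That run therefore does not cover lens tissue on some arrays. The median SE was 0.095, and 3 arrays per group limit the precision. The labels do not say how the samples relate beyond being littermates of each genotype. The genes of the set, the lists and the tests were chosen with earlier results of these data known. Named were all tested genes of the set and, of each pathway list, the 2 with the smallest p. Lists count only tested genes. Promoters came from RefSeq (GRCm38.p6). Alternatives were other filters, normalizations, spread priors, array weights, a replicate block, probe set means, lens corrections and each array left out; the use of dimmer probe sets was added after seeing the data. Figures were drawn with matplotlib 3.10.9.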

Additional observations from a re-analysis of the deposited data

How the results depend on the processing

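Under 17 alternatives 22 of the 28 genes kept the sign of their log2 change, and 22 to 25 genes were below 0 (22 of 26 tested with a log2 floor of 6). The median log2 change of the set was -0.16 with a second quantile normalization and ran from -0.15 to -0.11 with 1 array left out. The genes that changed sign had small changes. Hif1a turned to -0.012 with a second quantile normalization, -0.0011 with array weights and -0.013 without the lens-rich arrays, and Tpi1 to 0.047 without them. With 1 array left out, Hif1a ran from -0.022 to 0.028, Tpi1 from -0.17 to 0.044, Egln3 from -0.092 to 0.016, Pkm from -0.016 to 0.066, Ndrg1 from -0.072 to 0.0078 and Pgk1 from -0.054 to 0.0045. The 2 calls were less stable. The count of called genes in the set became 0 with no filter on dim probe sets, where more genes are tested, and 0 without the 2 lens-rich arrays. It became 1 with array weights, the replicate block, the lens mean as a covariate, probe sets averaged by gene or the dimmer probe sets. Leaving out 1 array gave 0 to 1. Over all genes the 129 calls became 74 with no filter, 209 with a floor of 6, 282 with an intensity trend, 68 with the replicate block, 36 without the lens-rich arrays and 25 to 141 with 1 array left out. Same-numbered arrays had correlations of -0.27, -0.38 and -0.06 between their deviations from the group means. The highest correlation between a knockout and a wildtype array, 0.39, joined knockout 2 and wildtype 1, the lens-rich arrays. Whether the replicate numbers pair the samples cannot be decided from these values, because deviations within a group sum to 0. That ties the correlations to one another. With the replicate block the adjusted p was 0.125 for Bnip3 and 0.043 for Pgam1. Causes of these shifts were not tested. Signal near background limits Car9 and Egln3.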
